A study of Mus musculus with 10 samples.

Results

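Open chromatin was compared between lineage-negative bone marrow cells of mice with the Npm1c allele (genotype Npm1flox-cA/+;Mx1-Cre+) and of wild-type mice, both on the C57BL/6 strain, with 2 libraries per genotype. These are 4 of the 10 samples of a series that also holds 2 libraries each of a double mutant (DM, Npm1flox-cA/+;Flt3ITD/+;Mx1-Cre+) and of Flt3-ITD mice (Flt3ITD/+), used here only as a second pair of genotypes, and 2 neutrophil samples that were not analysed here. In ATAC-seq the Tn5 transposase cuts accessible DNA, and here 100000 cells per library were tagmented after depletion of cells with mature lineage markers, per the labels' protocols. Peaks of the 4 lists that shared at least 1 bp on chromosomes 1 to 19 and X were merged into 88439 regions, against 103446 when the lists of all 8 progenitor libraries were merged. A region was counted as gained when both Npm1c libraries and neither WT library had a peak in it (2806 regions, 3.17%), and as lost in the opposite case (6533 regions, 7.39%). All 4 libraries had a peak in another 47079 regions (53.2%), and there the number of bases under peaks, here called width, was compared. The Npm1c mice carry Mx1-Cre, a Cre recombinase under an interferon-inducible promoter, and no Cre is named for the WT mice, so the allele and the Cre with its induction cannot be told apart. Ages, sexes and the inducing agent are not given in the sources used here. Replicates are called biological in the labels, with no animals named, so all errors measure the spread between these libraries only.

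Nucleophosmin, encoded by Npm1, is a histone chaperone and ribosome assembly factor that shuttles between nucleolus and cytoplasm. Frameshift mutations that give its C terminus a nuclear export signal move the protein to the cytoplasm and are among the commonest lesions of acute myeloid leukaemia, where they go with high expression of HOXA, HOXB and MEIS1 genes. Lineage-negative marrow holds stem cells and the progenitors of the myeloid, erythroid and megakaryocytic series. Heat shock and interferon genes, which recur in the results, are inducible programmes. Heat shock factors bind repeated GAA units in promoters of chaperone genes, and interferon-stimulated factors bind tandem GAAA-type units.

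The promoters of 5 genes with a gained or wider region are shown because they carry one of these 2 kinds of unit. At Hspa1a and Chordc1 the region over the promoter itself was called in all 4 libraries and not called by the width test. It was 481 and 341 bp wide in Npm1c and 505 and 429 bp in WT at Hspa1a. At Chordc1 it was 2089 and 2135 bp in Npm1c and 1928 and 2066 bp in WT. Each runs from 250 bases before to 50 bases after the annotated start, 5′ to 3′, and comes from RefSeq on GRCm38.p6. Hsph1 (chr5:149636287-149636586 on the minus strand) and Hspa1a (chr17:34972107-34972406 on the minus strand) encode heat shock proteins of the HSP110 and HSP70 families and Chordc1 (chr9:18292017-18292316 on the plus strand) an HSP90 co-chaperone. Their capitals mark GAANNTTC, a pair of GAA units facing each other, which reads the same on both strands. Ifi44 (chr3:151749861-151750160 on the minus strand) and Ifih1 (chr2:62646206-62646505 on the minus strand) encode an interferon-induced protein and the RNA sensor MDA5. Their capitals mark GAAANNGAA on either strand of the gene, so a match on the opposite strand is printed as its reverse complement.
Hsph1: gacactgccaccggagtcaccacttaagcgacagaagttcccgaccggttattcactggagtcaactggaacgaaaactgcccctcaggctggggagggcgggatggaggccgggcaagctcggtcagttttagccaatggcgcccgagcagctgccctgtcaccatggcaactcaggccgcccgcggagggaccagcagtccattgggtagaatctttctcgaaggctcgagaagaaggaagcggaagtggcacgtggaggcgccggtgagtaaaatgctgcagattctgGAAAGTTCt
Hspa1a: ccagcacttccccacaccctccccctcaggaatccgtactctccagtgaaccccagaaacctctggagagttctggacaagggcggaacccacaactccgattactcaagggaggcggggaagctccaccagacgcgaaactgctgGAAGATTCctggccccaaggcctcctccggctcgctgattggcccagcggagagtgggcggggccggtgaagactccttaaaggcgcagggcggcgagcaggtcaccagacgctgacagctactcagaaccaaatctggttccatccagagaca
Chordc1: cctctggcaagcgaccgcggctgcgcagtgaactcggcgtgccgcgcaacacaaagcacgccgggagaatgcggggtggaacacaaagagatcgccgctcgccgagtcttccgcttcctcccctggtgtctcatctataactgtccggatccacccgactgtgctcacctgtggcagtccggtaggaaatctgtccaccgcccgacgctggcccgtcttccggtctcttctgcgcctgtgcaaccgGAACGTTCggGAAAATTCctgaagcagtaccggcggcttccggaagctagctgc
Ifi44: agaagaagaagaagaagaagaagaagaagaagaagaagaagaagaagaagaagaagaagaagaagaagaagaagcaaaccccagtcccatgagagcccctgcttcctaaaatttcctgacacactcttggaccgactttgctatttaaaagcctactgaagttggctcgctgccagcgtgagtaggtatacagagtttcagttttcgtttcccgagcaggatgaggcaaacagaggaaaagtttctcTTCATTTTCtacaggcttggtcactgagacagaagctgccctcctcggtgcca
Ifih1: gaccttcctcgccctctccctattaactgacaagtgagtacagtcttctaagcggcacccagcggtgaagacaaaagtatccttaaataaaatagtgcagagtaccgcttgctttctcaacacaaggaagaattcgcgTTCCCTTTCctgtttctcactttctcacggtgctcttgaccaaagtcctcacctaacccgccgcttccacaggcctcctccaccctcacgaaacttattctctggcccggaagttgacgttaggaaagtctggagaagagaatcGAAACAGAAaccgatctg
A match is a description of the letters and not a site of binding. GAANNTTC was found in 2579 of 32619 promoters (7.91%). It was found in 15 of 42 promoters of heat shock and chaperone genes, which belong to 13 of the 30 such genes in the table. GAAANNGAA was found in 2783 promoters (8.53%), and in 21 of 38 promoters of interferon response genes, at 21 of 32 genes. The 300 bases of Hspa1a are identical to those of its neighbour Hspa1b at 296 positions, so reads could be split between these copies, and values at both are uncertain to that extent.

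Heat shock and chaperone genes held 21 gained regions among 159 assigned to them (13.2%, against 3.17% of all regions), at 9 of the 36 genes with a region. They held 9 lost regions (5.66%, against 7.39%). Hsph1 had most gained regions, 5 of 16, and all 5 lay inside the gene or across its far end. The widest, chr5:149614659-149619378, was covered over 4720 and 2313 bp in the Npm1c libraries and was not called in the WT, DM or Flt3-ITD libraries. Peaks covered 78.1% and 35.8% of the Hsph1 gene body in Npm1c, 4.39% and 4.39% in DM, 5.52% and 6.43% in Flt3-ITD, and 10.9% and 11.7% in WT. Both Npm1c libraries thus lie above the other 6, and they differ from each other by more than the WT libraries do. Hsph1 was taken for its gained regions, which by definition add coverage in Npm1c and none in WT. Its higher coverage than in WT is therefore not a separate result. The same limit holds below wherever coverage is given for a gene with gained or lost regions inside it. The region over the Hsph1 promoter was 4131 and 4046 bp wide in Npm1c and 2158 and 2218 bp in WT (log2 difference 1.0, SE 0.12, limma adjusted p = 0.000806). Its width in DM was 1342 and 1345 bp and in Flt3-ITD 1366 and 1395 bp.

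**Figure D1:**
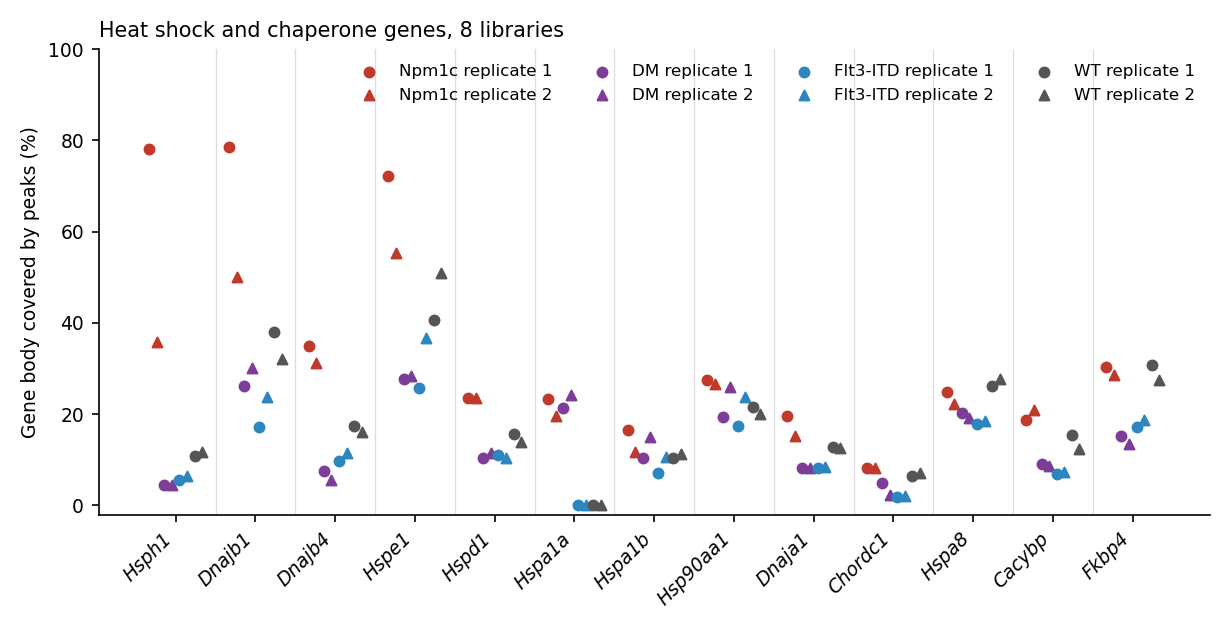
Share of each gene body covered by peaks (percent, vertical axis) for 13 heat shock and chaperone genes, with 1 symbol per library (circles replicate 1, triangles replicate 2). At Hsph1 the Npm1c libraries stand at 78.1% and 35.8% and the other 6 at or below 11.7%, while at Hspa8 the Npm1c values of 24.9% and 22.3% lie below the WT values of 26.2% and 27.7%. Gained regions inside a gene by definition add coverage in Npm1c and none in WT.

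Among the co-chaperones of the J-domain family, which hand client proteins to HSP70, 3 had gained regions. Dnajb4 had 4 gained regions of 8, all inside the gene, and peaks covered 34.9% and 31.2% of it in Npm1c against 17.5% and 16.2% in WT. Its promoter region was 3712 and 3654 bp wide in Npm1c and 2634 and 2406 bp in WT (log2 difference 0.64, limma adjusted p = 0.00363). In DM it was 1101 and 738 bp wide and in Flt3-ITD 1734 and 1761 bp, the opposite direction (log2 difference -1.03, limma adjusted p = 0.0414). Dnajb1, a partner of inducible HSP70, had 3 gained regions of 11, with 78.6% and 50% of the gene covered in Npm1c, against 38.0% and 32.2% in WT. Dnaja1 had 1 gained region, with 19.6% and 15.3% covered in Npm1c and 12.9% and 12.5% in WT. These 3 genes were taken for their gained regions, which by definition add coverage in both Npm1c libraries only. Their higher coverage is therefore not a separate result. Other members were covered less in Npm1c. Dnaja4 was covered over 14.8% and 13.6% in Npm1c and 17.7% and 16.5% in WT. Dnajb5, with 1 lost region, was covered over 6.63% and 6.68% in Npm1c and 13.3% and 11.4% in WT.

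Among the HSP70 genes, a gained region overlapped the far end of Hspa1a (chr17:34968018-34970009), with 1992 and 1484 bp in Npm1c and no call in WT. It was called in both DM libraries (951 and 1761 bp) and in neither Flt3-ITD library. Beside its copy Hspa1b, a region called in all 4 libraries was 1986 and 1399 bp wide in Npm1c and 327 and 322 bp in WT (log2 difference 2.46, SE 0.21, limma adjusted p = 0.000159), while 3 other regions near Hspa1b were lost. Hspa8, the constitutive HSP70, had 1 gained and 1 lost region of 8. The mitochondrial chaperonin genes Hspd1 and Hspe1 share a promoter between them. Hspd1 had 2 gained regions of 6 and 1 wider one, and a region next to Hspe1 was 1707 and 1419 bp wide in Npm1c and 406 and 606 bp in WT (log2 difference 1.74, SE 0.24, limma adjusted p = 0.00158). Hsp90aa1, the inducible HSP90, had 2 gained regions of 10 and 1 narrower one, and Chordc1 2 of 4, 1 of them inside the gene and 1 far outside it. No region of Hsf1 or Hsf2, the heat shock factors, was gained, lost or called by the width test. Over the list, 10 of 88 width-tested regions were wider (11.4%, against 5.94% of all) and 4 narrower (4.55%, against 5.04%), with a median log2 difference of 0.14 (0.06 over all 47079). The gained count was 35 without Npm1c replicate 2, when a call in 1 Npm1c library was enough, and 12 with peaks of 300 bp or more. It was between 17 and 23 under the other settings tried, apart from 16 when only regions inside a gene or within 1 kb were assigned. Wider regions numbered 4 without library centring, 3 in regions with 1 peak per list and 5 without Npm1c replicate 1, and lost regions 23 without WT replicate 2.

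Interferon response genes had 8 gained regions of 171 (4.68%, against 3.17%) and 10 lost (5.85%, against 7.39%). In the width test 14 of their 105 regions were wider (13.3%, against 5.94% of all) and 0 narrower by limma at an adjusted p under 0.05, with 2 narrower at an unadjusted p under 0.05. With the replicate block, 1 was narrower. Ifi44 was the one gene of this list whose promoter overlapped a gained region (chr3:151749388-151750062), with 675 and 575 bp in Npm1c and no call in WT, DM or Flt3-ITD. Ifih1 had 2 gained regions and 2 wider ones, among them the promoter region with 3900 and 3763 bp in Npm1c and 3130 and 2655 bp in WT (log2 difference 0.50, SE 0.10, limma adjusted p = 0.0102). A region inside Samd9l, an interferon-induced growth regulator, was 1359 and 1318 bp wide in Npm1c and 590 and 280 bp in WT (log2 difference 1.81, SE 0.24, limma adjusted p = 0.00134). Gbp5, a guanylate-binding GTPase, had 3 wider regions and 1 gained. The count of wider regions was sensitive to the fit. It was 2 without library centring, 3 without a variance trend, 3 without Npm1c replicate 1 and 7 without Npm1c replicate 2.

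At Mx1 itself, an interferon-induced GTPase gene whose promoter drives the Cre, 2 of 4 regions were gained. They lie beyond one end of the gene, with midpoints 860 and 3879 bp from it. The nearer one (chr16:97463566-97463966) had 401 and 212 bp in Npm1c, 260 and 266 bp in DM, and no call in Flt3-ITD or WT. The farther one (chr16:97466628-97466942) had 200 and 249 bp in Npm1c, 217 and 291 bp in DM, and again no call in Flt3-ITD or WT. The 4 libraries with these calls are those whose genotype includes Mx1-Cre, and whether reads of the transgene add to them was not tested. The promoter of Mx1 is not shown.

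The HOX genes and their cofactors had 4 gained regions of 127 (3.15%, near the 3.17% of all regions) and 20 lost (15.7%, against 7.39%). Of 57 width-tested regions 11 were wider (19.3%, against 5.94%) and 7 narrower (12.3%, against 5.04%). The gains lay at Hoxa9, Hoxa10, Meis1 and Meis2, 1 at each, and numbered 11 without Npm1c replicate 1, 10 without Npm1c replicate 2 and 11 without WT replicate 1. Wider regions numbered 4 without library centring. Inside Hoxa10 a gained region (chr6:52231895-52233221) had 895 and 1260 bp in Npm1c, 763 and 987 bp in DM, and no call in Flt3-ITD or WT. Next to it, chr6:52233328-52235334 was 1837 and 1965 bp wide in Npm1c and 594 and 346 bp in WT (log2 difference 2.16, SE 0.19, limma adjusted p = 0.000183). The same region was 1653 and 1777 bp wide in DM and 436 and 574 bp in Flt3-ITD (log2 difference 1.70, limma adjusted p = 0.00598), so the 4 libraries with the Npm1c allele all lay above the 4 without it. Between Hoxa9 and Hoxa10, chr6:52228464-52231070 was 2565 and 2584 bp wide in Npm1c and 1499 and 1216 bp in WT (log2 difference 1.03, SE 0.12, limma adjusted p = 0.000762), and 2367 and 2024 bp in DM and 1242 and 1717 bp in Flt3-ITD (log2 difference 0.51, limma adjusted p = 0.0815).

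Hoxa9, which encodes a stem cell transcription factor, had 1 gained region and 2 wider ones, and peaks covered 49.9% and 64.8% of it in Npm1c against 31.4% and 18.7% in WT. Its promoter in the RefSeq promoter windows was called in none of the 4 libraries. The region over the gene was 1866 and 2248 bp wide in Npm1c and 1341 and 801 bp in WT (log2 difference 1.08, SE 0.17, limma adjusted p = 0.00331, and 0.122 without library centring). Its width was 1819 and 1874 bp in DM and 968 and 1040 bp in Flt3-ITD (log2 difference 0.80, limma adjusted p = 0.0102). Meis1, the HOX cofactor, had 1 gained and 2 lost regions of 28 and 2 wider ones. The largest of these, chr11:18875258-18879282, had 3427 and 4025 bp in Npm1c and 3126 and 2101 bp in WT (log2 difference 0.63, SE 0.13, limma adjusted p = 0.00999, and 0.209 without library centring), and 1262 and 1106 bp in DM against 1091 and 1103 bp in Flt3-ITD. At that Meis1 region the DM and Flt3-ITD widths overlapped (log2 difference 0.03, SE 0.12, limma adjusted p = 0.894). The midpoint of that region lay 3158 bp outside Meis1, and it overlapped promoters of 8430419K02Rik. The region over the Meis1 promoter, chr11:19018002-19021114, was not called by the width test (log2 difference 0.28, SE 0.11, limma adjusted p = 0.131). Losses of the list lay mainly at Mn1, a transcriptional cofactor gene with 6 of 15 regions lost, and at Pbx4 with 3 of 5.

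**Figure D2:**
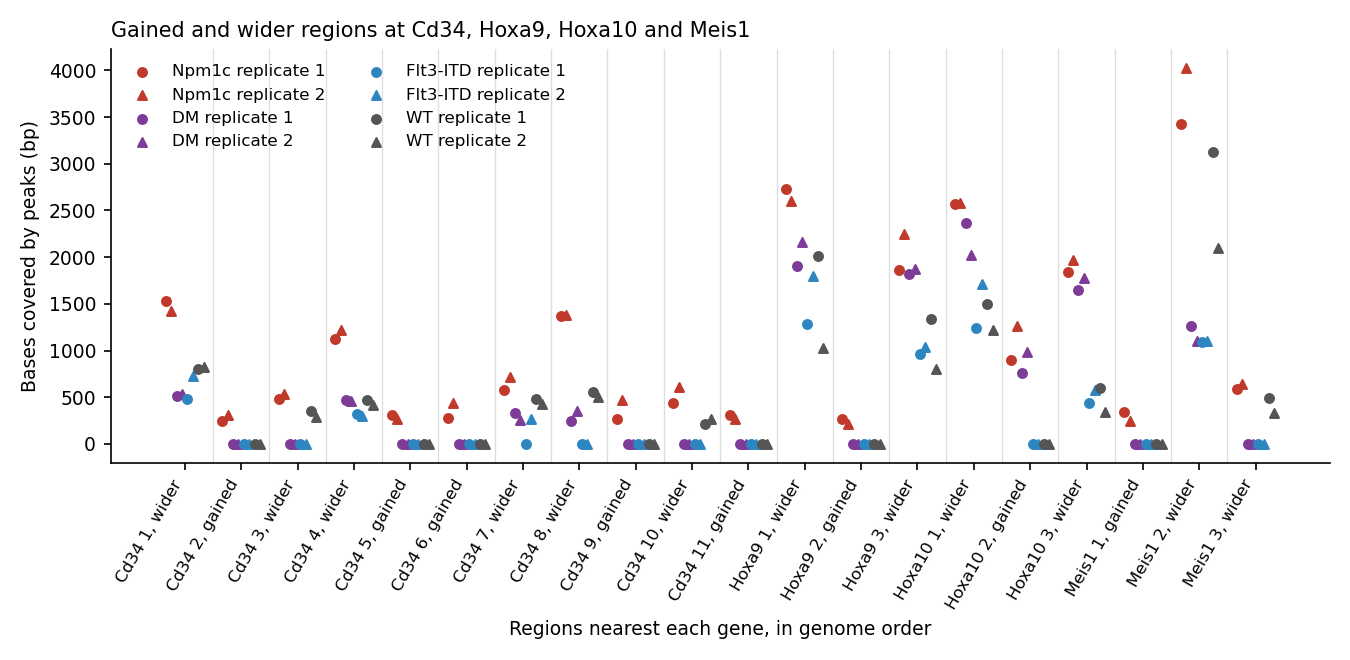
Bases covered by peaks (bp, vertical axis) in each gained or wider region assigned to Cd34, Hoxa9, Hoxa10 and Meis1, with 1 symbol per library. At the Hoxa10 regions numbered 2 and 3 the Npm1c and DM libraries lie between 763 and 1965 bp and the Flt3-ITD and WT libraries between 0 and 594 bp. At the Cd34 region numbered 8 the Npm1c libraries lie at 1370 and 1379 bp and the other 6 at or below 554 bp.

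Stem cell genes had 23 gained regions of 534 (4.31%, against 3.17% of all) and 30 lost (5.62%, against 7.39%). Of 272 width-tested regions 30 were wider (11%, against 5.94%) and 10 narrower (3.68%, against 5.04%). Cd34, the surface marker of multipotent progenitors, had 5 gained, 6 wider and 0 lost regions of 23. Inside the gene, chr1:194942935-194944183 was 1125 and 1217 bp wide in Npm1c and 466 and 416 bp in WT (log2 difference 1.5, SE 0.16, limma adjusted p = 0.000424). Peaks covered 11.7% and 14.7% of Cd34 in Npm1c, 5.63% and 5.49% in DM, 2.48% and 2.91% in Flt3-ITD, and 5.82% and 3.43% in WT. Cd34 had 9 gained regions without Npm1c replicate 1 and 8 without WT replicate 1. Mllt3, a gene of stem cell maintenance, had 4 gained regions of 25, and Cd48 3 of 7. Runx1, a regulator of blood stem cell emergence, had 7 lost regions of 49 and 20 without WT replicate 2. Of the 14 regions of Kit, the stem cell factor receptor, 0 were gained or lost, and its 8 width-tested regions had limma adjusted p-values of 0.0570 or more. The gene was covered over 6.62% and 7.88% in Npm1c and 10.9% and 7.33% in WT.

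Npm1 had 3 regions, all called in all 4 libraries and none called by the width test. The one over the gene was 1681 and 1805 bp wide in Npm1c and 1747 and 1645 bp in WT (log2 difference 0.13, SE 0.13, limma adjusted p = 0.537). Peak positions do not read the mutated allele and cannot check the genotype. Of the 13 regions of Flt3, the receptor mutated in the other genotypes, 0 were gained or lost, and its 9 width-tested regions had limma adjusted p-values of 0.148 or more. Genes of the nucleolus and of ribosome biogenesis, the compartment in which nucleophosmin works, had 0 gained regions of 96 (3.17% of all) and 6 lost (6.25%, against 7.39%). Of their 57 width-tested regions 8 were narrower (14.0%, against 5.04%) and 1 wider (1.75%, against 5.94%). Ncl, encoding nucleolin, had 3 of the 8. Inside it, chr1:86347966-86349695 was 365 and 331 bp wide in Npm1c and 1657 and 720 bp in WT (log2 difference -1.56, SE 0.27, limma adjusted p = 0.00458). The other narrower regions lay at Trp53 (2), Npm3, Polr1c and Ubtf. Without library centring 2 of the list were narrower. The promoters of all 24 listed genes in the promoter table were called in each of the 4 libraries.

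The erythroid list had 15 gained regions of 303 (4.95%, against 3.17% of all) and 18 lost (5.94%, against 7.39%). Of 167 width-tested regions 21 were wider (12.6%, against 5.94%) and 13 narrower (7.78%, against 5.04%). Its members fell on both sides. Gained regions lay at 8 genes of the list and wider ones at 8, and Sox6 had most gained regions, 4 of 35. Part of the gained and wider regions lay at the carbonic anhydrase genes, which erythroid progenitors express. Peaks covered 62.7% and 53.9% of Car2 in Npm1c against 34.3% and 29.9% in WT, with 3 gained and 6 wider regions of 22. They covered 10.5% and 10.4% of Car1 in Npm1c against 3.11% and 3.29% in WT, with 3 gained and 3 wider regions of 9 and 1 lost. Zfpm1, the gene of the GATA1 cofactor FOG1, lay on the other side, with 7 lost and 9 narrower regions of 33, and was covered over 23.6% and 23.2% in Npm1c, 13.8% and 11.9% in DM, 30.0% and 39.5% in Flt3-ITD, and 46.8% and 43.2% in WT. Beyond its end, chr8:122341203-122342296 was 217 and 228 bp wide in Npm1c and 1094 and 1017 bp in WT (log2 difference -2.15, SE 0.18, limma adjusted p = 0.000159). Gata2, a progenitor transcription factor gene that is not in the erythroid list, had 1 lost and 3 narrower regions of 10. It was covered over 15.7% and 13.4% in Npm1c and 34.3% and 31.2% in WT. Promoters of 12 and 9 of 25 erythroid genes were called in DM, against 20 and 22 in Flt3-ITD, so the second pair of genotypes differed in erythroid promoters as the first did not. In such bulk libraries fewer cells of a type and less open chromatin per cell cannot be told apart.

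T and NK genes had 3 gained regions of 162 (1.85%, against 3.17% of all) and 23 lost (14.2%, against 7.39%), and 59 were lost without WT replicate 2. Of 67 width-tested regions 10 were narrower (14.9%, against 5.04%) and 1 wider (1.49%, against 5.94%). Runx3, a regulator of cytotoxic T and NK cells, had 9 lost and 6 narrower regions of 28. Over one of its annotated starts, chr4:135151956-135154400 was 1203 and 1304 bp wide in Npm1c and 2443 and 2199 bp in WT (log2 difference -0.79, SE 0.12, limma adjusted p = 0.00287). Of the 9 lost Runx3 regions 4 were called in all DM and Flt3-ITD libraries, among them chr4:135079931-135080929 with 999 and 979 bp in DM, 938 and 999 bp in Flt3-ITD, and 999 and 573 bp in WT. Tcf7, the gene of the T cell and progenitor factor TCF1, lost 5 of 8 regions, and its promoter region was 240 and 283 bp wide in Npm1c and 608 and 577 bp in WT (log2 difference -1.09, SE 0.19, limma adjusted p = 0.00475). Of the 23 T and NK genes in the promoter table, the promoters of 5 and 4 were called in Npm1c and of 9 and 6 in WT, and those of 14, Cd3d, Cd3e, Cd3g, Cd8a and Lck among them, in none of the 4 libraries. Stroma and endothelium genes lost 18 of 140 regions (12.9%), 4 each at Kdr and Pdgfrb, the receptors of VEGF and PDGF, with promoters of 2 and 2 of 15 genes called in Npm1c and 6 and 5 in WT. The part of these cell types in the losses was not tested. The B-lymphoid list had 6 lost regions of 184 (3.26%, below the 7.39% of all). B-lymphoid promoters were called at 9 and 8 of 20 genes in Npm1c and at 9 and 7 in WT, and those of Pax5, Ebf1 and Cd79a were called in none of the 4 libraries.

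Chromatin regulator genes had 15 gained regions of 382 (3.93%, against 3.17% of all) and 44 lost (11.5%, against 7.39%), or 112 lost without WT replicate 2. Arid1b, a subunit gene of the BAF remodelling complex, lost 15 of 60 regions. Bcor, which encodes a Polycomb-associated corepressor mutated in myeloid leukaemia, had 4 lost and 6 narrower regions of 37. Tet2, a DNA demethylase gene mutated in clonal haematopoiesis, instead had 6 gained regions of 20 and 0 lost. The Tet2 region chr3:133548684-133549340 had 512 and 657 bp in Npm1c, 331 and 410 bp in DM, and no call in Flt3-ITD or WT. A wider Tet2 region, chr3:133584855-133585471, was 533 and 617 bp in Npm1c and 426 and 338 bp in WT (log2 difference 0.69, SE 0.18, limma adjusted p = 0.0306), and 593 and 399 bp in DM and 204 and 238 bp in Flt3-ITD (log2 difference 1.07, limma adjusted p = 0.0425).

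AP-1 and immediate early genes, which answer to stress and growth signals, had 7 gained regions of 179 (3.91%, against 3.17% of all) and 11 lost (6.15%, against 7.39%). Of 98 width-tested regions 5 were wider (5.10%, against 5.94%) and 8 narrower (8.16%, against 5.04%). The gained, lost and wider shares were thus near those of all regions. The gains and wider regions lay at 4 of the 27 genes. Atf3, a stress-induced factor gene, had 4 gained regions inside it, and peaks covered 44.4% and 28.4% of it in Npm1c and 12.4% and 7.95% in WT. That coverage includes the gained regions and is not a separate result. Klf6 had 2 gained and 4 wider regions of 13, and was covered over 88.4% and 100% in Npm1c and 79.5% and 46.1% in WT. Egr1 held the second largest width difference of all regions. It was 2040 and 2203 bp wide in Npm1c and 445 and 203 bp in WT (log2 difference 2.91, SE 0.24, limma adjusted p = 0.000159), with no call in DM or Flt3-ITD. Junb, Jund and Nr4a1 each had 1 narrower region, so the list did not move one way.

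**Figure D3:**
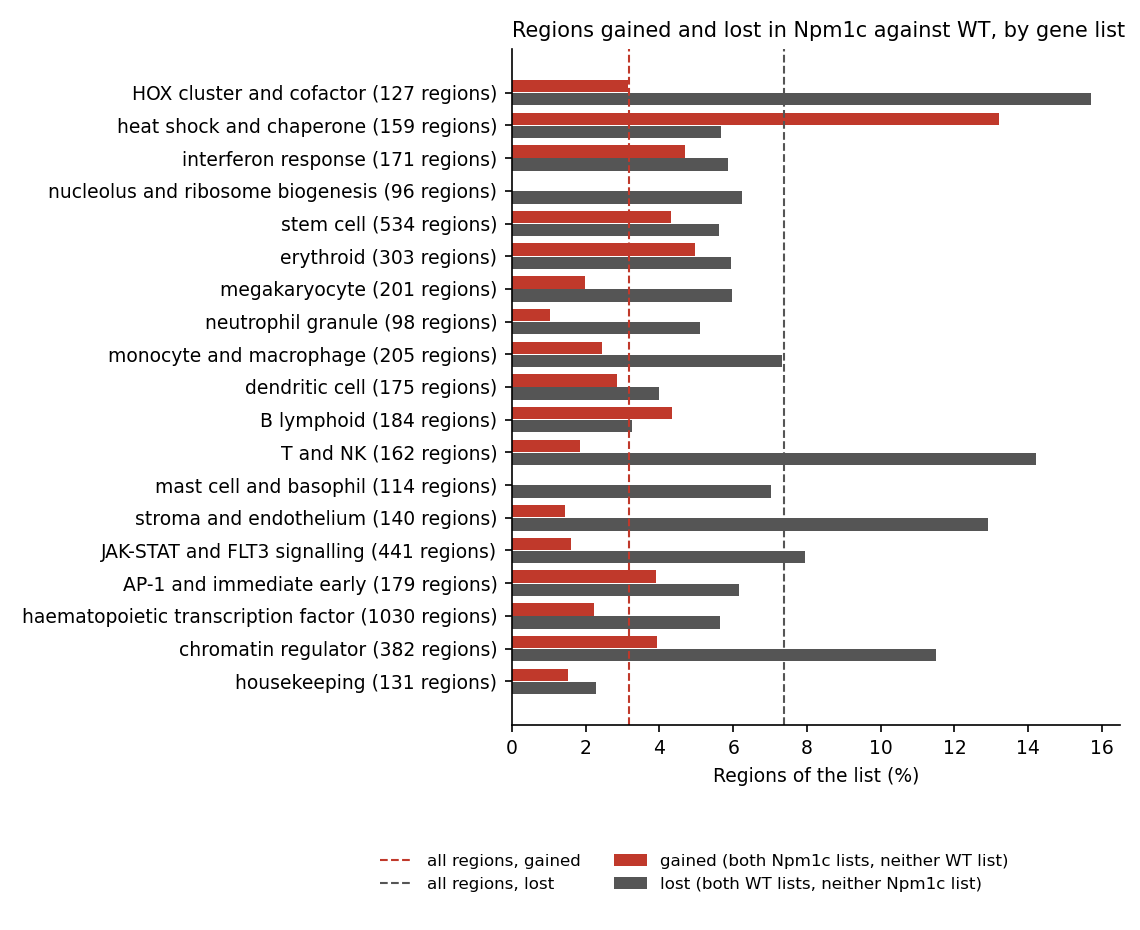
Share of each gene list's regions (percent, horizontal axis) that were gained (red) or lost (grey) in Npm1c against WT, with dashed lines at 3.17% and 7.39% for all regions. Heat shock and chaperone genes have the longest gained bar, 13.2%, and HOX cluster and cofactor (15.7%) and T and NK (14.2%) genes the longest lost bars.

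The remaining lists had gained shares from 0 to 4.35%, against 3.17% of all regions. Megakaryocyte genes had 4 gained of 201 (1.99%), B-lymphoid genes 8 of 184 (4.35%), dendritic cell genes 5 of 175 (2.86%), monocyte and macrophage genes 5 of 205 (2.44%), and JAK-STAT and FLT3 signalling genes 7 of 441 (1.59%). Haematopoietic transcription factor genes had 23 of 1030 (2.23%), neutrophil granule genes 1 of 98 (1.02%), and mast cell and basophil genes 0 of 114. Among these lists, Mef2c, a megakaryocyte and lymphoid transcription factor gene, had 2 gained regions of 39, and Bank1, a B cell scaffold gene, 5 of 14. Losses reached 6 of 26 at Ly86, a gene of myeloid and B cells, 3 of 12 at Irf8, the monocyte and dendritic cell factor, 5 of 13 at Socs3, the inhibitor of JAK signalling, and 4 of 16 at Stat5b. Their lists lay near the 7.39% of all regions lost. The monocyte and macrophage list lost 15 of 205 (7.32%) and the JAK-STAT and FLT3 signalling list 35 of 441 (7.94%). Housekeeping genes had 2 gained regions of 131 (1.53%) and 3 lost (2.29%). One of these gains lay inside B2m, the MHC class I light chain gene, at chr2:122150858-122152553 with 1659 and 1363 bp in Npm1c and no call in WT, DM or Flt3-ITD. Peaks covered 86.5% and 83.4% of B2m in Npm1c and 47.5% and 43.8% in WT, a coverage that includes the gained region.

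By number, the gained regions were most frequent at Lsamp, a neuronal adhesion gene, with 8 of 16, and at Thsd7b with 7 of 29. They were next most frequent at Samsn1, an adaptor gene of haematopoietic cells, with 7 of 33. Peaks covered 17.2% and 17.3% of Samsn1 in Npm1c, 3.62% and 4.31% in DM, 1.34% and 1.63% in Flt3-ITD, and 7.89% and 5.11% in WT. Gabarapl1, an autophagy gene, had 5 of 10 and was covered over 50.4% and 55.5% in Npm1c and 29.9% and 24.3% in WT. The 10 genes with most gained regions, which also include Tet2, Lrba, Plcb1, Akap13, Macc1 and Bank1, had 0 lost regions between them. Losses were most frequent at Gse1, a component gene of a histone deacetylase complex, with 18 of 89 and 12 narrower, or 42 lost without WT replicate 2. Peaks covered 10.1% and 10.4% of Gse1 in Npm1c and 19.9% and 16.6% in WT. Next came Arid1b with 15 of 60, Mdga1 with 12 of 22, Septin9 with 11 of 34, and Armc2, Ksr1, Specc1 and Nol4l with 10 each. Since genes with many regions can have more of any class, these counts rank genes and are not rates. The coverage of genes ranked this way includes the counted regions and is not a separate result.

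The widest lost regions lay at Nags, Bsn, Scarb1, Mdga1 and Mdk. The one inside Bsn (chr9:108110257-108111866) was not called in Npm1c and covered 1276 and 1227 bp in DM, 892 and 1350 bp in Flt3-ITD, and 1610 and 1412 bp in WT. The region inside Nags (chr11:102145199-102146950) was likewise not called in Npm1c and covered 200 and 0 bp in DM, 630 and 1203 bp in Flt3-ITD, and 1752 and 1349 bp in WT. The regions at Hsph1, Hspa1a and B2m given above were among the widest gained ones.

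Peak width answered a second question, whether regions open in both genotypes changed in extent. In the 47079 regions called in all 4 libraries, limma on log2 width with each library centred on its median called 2797 wider (5.94%) and 2371 narrower (5.04%) in Npm1c at an adjusted p under 0.05. At an unadjusted p under 0.05 the counts were 7082 and 5526. Without library centring 540 were wider and 738 narrower, so the wider share of the calls was 54.1% with centring and 42.3% without. The median log2 difference over all these regions was 0.06 with centring and -0.04 without. The wider regions had a median width of 997 and 1080 bp in Npm1c and 623 and 544 bp in WT, and the narrower ones 410 and 443 bp in Npm1c and 974 and 840 bp in WT. The uncentred medians of all 47079 regions were 500 and 534 bp in Npm1c and 598 and 509 bp in WT, a log2 difference of -0.09 (exact permutation p = 0.667, two-sided), which turned to 0.02 without WT replicate 1. With 2 libraries against 2 the smallest exact p is 0.333, so no single gained or lost region was tested.

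**Figure D4:**
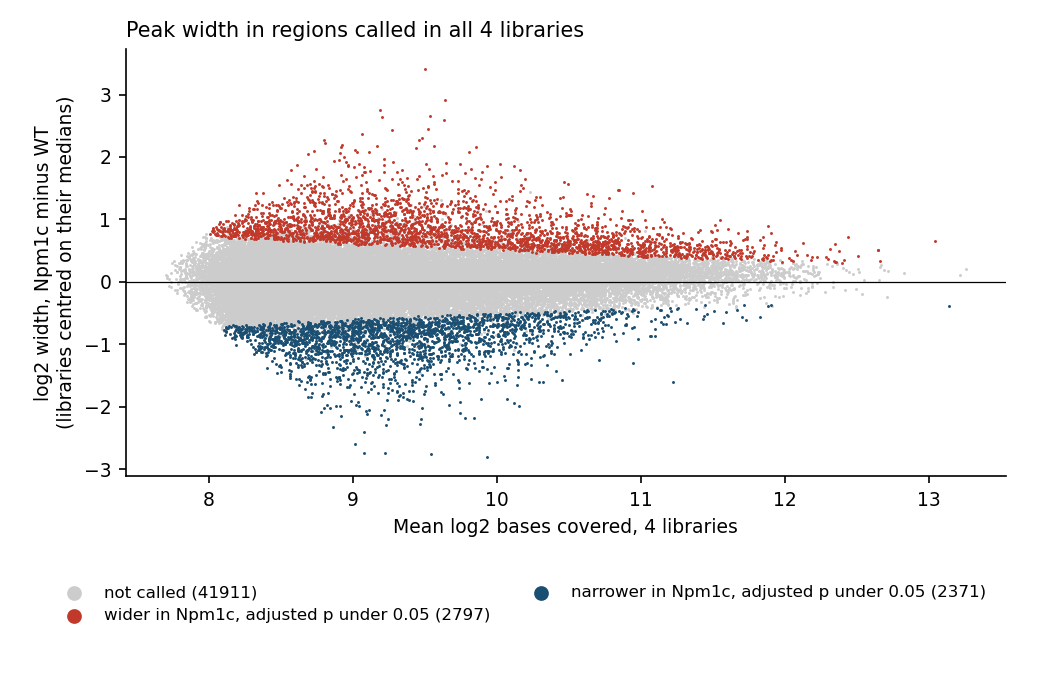
Difference in log2 width (Npm1c minus WT, libraries centred on their medians, vertical axis) against mean log2 width (horizontal axis) for the 47079 regions called in all 4 libraries, each point a region. Red points are the 2797 regions wider and dark blue points the 2371 narrower at a limma adjusted p under 0.05.

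The largest width difference, 3.41 on the log2 scale (SE 0.16, limma adjusted p = 9.92e-06), was at chr10:104041793-104044103, with no gene within 100 kb. It was 2292 and 2290 bp wide in Npm1c and 237 and 222 bp in WT, with no call in DM or Flt3-ITD. After Egr1, the next were inside Stard13 (1381 and 1547 bp in Npm1c, 238 and 227 bp in WT, log2 difference 2.75) and Dlg2 (1983 and 1648 bp, against 302 and 308 bp, 2.66). Ccnl1, a cyclin gene of RNA processing, followed with 1472 and 1382 bp in Npm1c and 287 and 207 bp in WT (log2 difference 2.64). None of these regions was called in DM or Flt3-ITD. In the narrower direction, the difference was -2.80 at Cxxc5, a CXXC zinc finger gene, with 209 and 612 bp in Npm1c and 2673 and 2657 bp in WT. It was -2.75 at the linker histone gene H1f10 (232 and 334 bp, against 2097 and 1909 bp), -2.74 at Nfix, -2.74 at Rbm38 and -2.60 at Celsr1. Limma adjusted p-values of these 9 genes were between 8.88e-05 and 0.000945. The narrowest peak in each list was 200 bp wide, and the low side of several of these regions lay near that floor. The floor limits how small a width and its spread can be, so these log2 differences and errors are not plain measures of a change in extent. This holds also for other regions given here with widths near 200 bp.

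Gained and lost regions differed in where they lay. Gained regions had a median width of 348 bp and lost regions of 362 bp, against 678 bp for regions called in all 4 libraries. A RefSeq promoter was overlapped by 26 gained regions (0.954%) and 438 lost regions (6.87%), against 13.3% of all regions and 21.7% of those called in all 4 libraries. Over 100 kb from any gene lay 314 gained regions (11.2%) and 133 lost regions (2.04%), against 4.69% of all regions. The same direction showed in the width test, in which 7.15% of the wider and 0.844% of the narrower regions lay over 100 kb from a gene, against 3.69% of all width-tested regions. Per library, that share of called regions was 4.69% and 5.09% in Npm1c, 4.03% and 4.08% in DM, 3.08% and 3.09% in Flt3-ITD, and 4.08% and 3.56% in WT. Besides Ifi44, gained regions overlapped the promoters of P2ry10b, a receptor gene of the P2Y family, and of Txk, a TEC kinase gene of lymphocytes, with 334 and 346 bp at Txk in Npm1c and no call in WT.

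The calls differed between chromosomes and along promoter GC content. The gained share was 5.46% on chromosome 1, 5.15% on X and 4.98% on chromosome 3, and 1.05% on chromosome 19 and 1.51% on chromosome 11. The lost share ran the other way, 13.7% on chromosome 11 and 11.7% on chromosome 19, against 3.22% on X and 3.66% on chromosome 3. Across 19 chromosomes with promoters in the table, the gained share had a Pearson r of -0.76 and a Spearman rho of -0.83 with the median GC content of promoters, and the lost share 0.83 and 0.86. These describe chromosomes, which share the same 4 libraries, and are not tests. Promoter GC had a median of 48.7% where regions were gained and 62.3% where they were lost, against 61.0% in regions called in all 4. Among 9880 promoter regions in the width test, split into 5 bins, the bin with the lowest GC (26.3 to 53.0%) had 10.5% wider and 3.59% narrower, and the bin with the highest (68.8 to 87.0%) 5.39% wider and 10.8% narrower. The median log2 difference between the replicates of 1 genotype was 0.06 to 0.07 in Npm1c and -0.15 to -0.13 in WT over the 5 bins, and the genotype difference was 0.12 in the lowest bin and 0.02 to 0.04 in the other 4. With the GC trend removed from a fit to promoter regions alone, 1269 were wider and 939 narrower, against 1149 and 1278 without, and 903 and 853 were called both ways. The part of base composition in the gained and lost calls outside promoters was not tested.

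**Figure D5:**
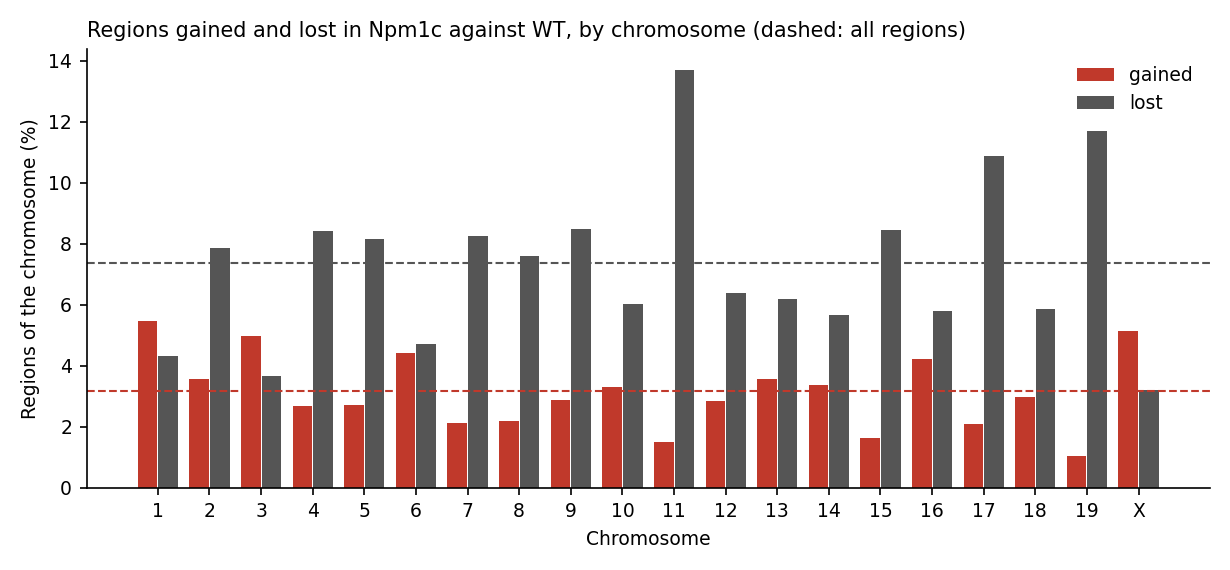
Share of each chromosome's regions (percent, vertical axis) gained (red) or lost (grey) in Npm1c against WT, with dashed lines at 3.17% and 7.39% for all regions. Chromosomes 1, 3 and X stand out with more gained than lost regions, and chromosomes 11, 17 and 19 with the highest lost shares.

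The motifs marked in the printed promoters were also counted by class. GAANNTTC, found in 5.49% of the promoters in regions called in all 4 libraries, was held by 74 of 867 promoters in wider regions (8.54%) and 42 of 1017 in narrower ones (4.13%). GAAANNGAA was held by 9.46% of promoters in wider and 5.21% in narrower regions, against 6.80% in regions called in all 4, and by 6 of 27 promoters in gained regions. Of the same 27 promoters 1 held GAANNTTC (3.70%), 8 the RUNX unit TGTGGT (29.6%), 7 the TATA box TATAAA (25.9%) and 5 the GATA unit AGATAA (18.5%). Among all 32619 promoters the shares were 8.53% for GAAANNGAA, 7.91% for GAANNTTC, 16.6% for RUNX, 13.7% for TATA and 11.2% for GATA. Of the 27, 7 held the GC box GGGCGG and 8 the CCAAT box CCAAT, against 35.9% and 37.6% of all promoters. The GC box GGGCGG was held by 58.7% of promoters in wider and 73.1% in narrower regions, against 64.8%. Other motifs also fell from wider over called in all 4 to narrower regions. The shares were 5.88%, 4.53% and 3.34% for AP-1 (TGANTCA) and 4.61%, 3.23% and 2.26% for the cyclic AMP response unit TGACGTCA. They were 9.92%, 6.56% and 5.60% for GATA, 7.15%, 6.26% and 4.23% for TATA, and 37.8%, 37.4% and 34.4% for CCAAT. That order was therefore not particular to GAANNTTC and GAAANNGAA. All motifs were searched on both strands, matches of different motifs may overlap, and the shares were not tested.

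The same allele contrast can be read in libraries that took no part in choosing the regions, DM against Flt3-ITD, where the allele again comes with Mx1-Cre. Of the 2806 gained regions 8.37% and 10.1% were called in DM and 1.03% and 1.43% in Flt3-ITD, a difference of 8.02 percentage points (exact permutation p = 0.333, two-sided, the smallest this design can give). It was 22.8 points when regions were gained against WT replicate 2 alone. Most gained regions, 2465 (87.8%), were called in none of these 4 libraries, against 35.0% of all regions. In both DM and neither Flt3-ITD library were 163 gained regions (5.81%), no more than the 6.55% of all regions (5790 of 88439). The reverse class, both Flt3-ITD and neither DM library, held 7 gained regions (0.249%), against 3361 of all 88439 regions. For regions open in each of the Npm1c and WT libraries the shares were 64.5% and 65.3% in DM and 65.5% and 76.0% in Flt3-ITD (-5.84 points), and over all 88439 regions they were 50.6% and 52.9% in DM and 44.1% and 52.4% in Flt3-ITD (3.44 points). Of the lost regions 30.3% and 35.3% were called in DM and 27.4% and 42.1% in Flt3-ITD. The difference of -1.97 points turned to 0.551 without DM replicate 1, to 5.37 without Flt3-ITD replicate 2 and to 13.4 without WT replicate 2, and was -20.8 points with lists of equal length.

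Direct overlap with the regions gained in DM against Flt3-ITD was small. It held 161 of the 2806 regions gained in Npm1c (5.74%) and 162 of the 11291 gained in DM (1.43%), which were themselves 14.8% of the 76152 regions of that pair. For lost regions it held 217 of the 6533 lost in Npm1c (3.32%) and 217 of the 3998 lost in DM (5.43%). The latter were 5.25% of the 76152 regions of that pair. The 14.8% and 5.25% rest on regions merged from other lists, so they cannot be set beside the 5.74% and 3.32%. Of the 6533 lost regions, 215 (3.29%) were called in both Flt3-ITD and neither DM library, and 221 (3.38%) the other way round. Of all 88439 regions these counts were 3361 and 5790. In the 26259 regions called in all 8 libraries, limma called 841 wider (3.20%) and 1281 narrower (4.88%) in DM against Flt3-ITD. Of 1120 regions wider in Npm1c, 98 (8.75%) were wider and 58 (5.18%) narrower in DM, with a median log2 difference of 0.01. Of 1762 regions narrower in Npm1c, 202 (11.5%) were narrower and 30 (1.70%) wider in DM, with a median of -0.13, against -0.01 over all 26259. The regions chr6:52225073-52227320 at Hoxa9, chr6:52233328-52235334 at Hoxa10 and chr3:133584855-133585471 at Tet2 were called wider in both pairs of genotypes. No wider Hsph1, Cd34 or Car2 region was called wider in DM, but only regions called in all 8 libraries were tested. At Cd34 the tested ones were chr1:194942935-194944183 (log2 difference 0.51, limma adjusted p = 0.0876) and chr1:194879244-194880944 (-0.23, limma adjusted p = 0.402). The other wider Cd34 regions were not tested in DM.

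Facts of the whole set bear on these counts. The lists held 62782 and 68676 peaks in Npm1c and 80916 and 63908 in WT, covering 39.6 and 43.2 Mb in Npm1c and 50.2 and 39.8 Mb in WT. WT replicate 1 alone called 11658 regions (13.2%), more than any other single library. Gained regions were 7790 without WT replicate 1, 6427 without Npm1c replicate 1 and 4463 when all lists were cut to the same number of peaks, which gave 5040 lost regions. Lost regions were 18191 without WT replicate 2, when a call in 1 library was enough. How many reads each list rests on is unknown. As a check of the labelled cells, promoters of 23 and 23 of 25 erythroid genes were called in Npm1c and of 22 and 22 in WT. Promoters of 19 and 19 of 27 stem cell genes were called in Npm1c and of 22 and 21 in WT, and those of all 24 housekeeping genes in every library.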

How the data were processed

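ATAC-seq peak lists of 2 Npm1c and 2 WT libraries of lineage-negative mouse bone marrow were analysed, with 2 DM and 2 Flt3-ITD libraries as a second pair. Groups and replicate numbers came from the sample titles. The authors deposited 1 peak list per library with chromosome, start and end and no score, read count or header. Reads were aligned with Bowtie2 and peaks called with MACS2 on mm10, per the submitters' processing notes. Versions, thresholds, duplicate removal and any Tn5 shift are not given in the sources used here, so the depth is unknown and a shorter list can reflect fewer reads.

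Peaks on chromosomes 1 to 19 and X sharing 1 bp were merged. Coordinates count from 1 on mm10. Each region was assigned by its midpoint to the gene containing it, or else to the nearest gene within 100000 bp, from 21630 RefSeq genes of GRCm38.p6, and no exon, intron or UTR is stated. Promoters were 300-base RefSeq windows, 32619 in all. Promoter shares leave out chromosome 18, and the promoter table does not hold every gene. Widths were the bases under peaks per library, as log2 values centred on each library's median, tested with limma 3.58.1 in R 4.3.3 (eBayes with trend, Benjamini-Hochberg over all 47079 regions). Exact permutation tests, two-sided, were used for single values per library. The scripts ran in Python 3.11.15 and the width test was checked on made-up widths with known changes. The 19 lists held 556 genes, all found. The members, lists and tests were chosen with earlier results of these data known. Named were the 10 genes with most gained and with most lost regions, up to 3 genes per list and direction, the 5 widest gained and lost regions, the 5 largest width differences each way, and Npm1, Flt3, Mx1, Hoxa9, Hoxa10, Meis1, Kit and Cd34. Not every gene that this rule names is reported here. Regions at other listed genes, Samd9l, Ncl, Gata2 and Hspe1 among them, and the promoters of Txk and P2ry10b, were named after their values were seen.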

Additional observations from a re-analysis of the deposited data

Results flagged for a closer look

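Peaks on unplaced scaffolds, which no comparison uses, numbered 43 and 48 in Npm1c, 19 and 18 in DM, 22 and 25 in Flt3-ITD, and 29 and 22 in WT. They stood out because both Npm1c libraries lay above both WT libraries, and the DM and Flt3-ITD libraries did not repeat the difference.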

How the results depend on the processing

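Lists of equal length gave 4463 gained and 5040 lost regions. With single libraries left out, the gained count was 3486 to 7790 and the lost count 7724 to 18191, since a call in the library kept was then enough. The share of gained regions called in DM minus Flt3-ITD was 6.70 to 22.8 points, and that of lost regions -9.30 to 13.4 (-20.8 with lists of equal length), with the sign turned at 0.551 without DM replicate 1, 5.37 without Flt3-ITD replicate 2 and 13.4 without WT replicate 2. The median width difference was -0.21 to 0.02 with single libraries left out, and positive without WT replicate 1. Wider regions numbered 540 without centring, 1457 in regions with 1 peak per list, 1769 by the widest single peak, 1762 without a variance trend and 1779 to 2582 with single libraries left out. Narrower regions numbered 738 without centring and 1471 to 1943 with single libraries left out. The cause was not tested. Under alternatives 594 list counts were within 1.5 times the value reported and 280 were not, against 2208 and 278 counts per gene. For single regions 2456 width differences kept their direction and side of the threshold and 983 kept the direction only. Equal replicate numbers were not shown to pair the libraries (correlation of deviations -0.0692), and a fit with the replicate block called 3548 wider and 3207 narrower. Centring per chromosome (2474 wider, 1962 narrower) and removing the GC trend were chosen after seeing the data. Read depth limits all counts and is unknown.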
